A study of Drosophila melanogaster with 9 samples.

Results

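The genes described here encode the receptor Toll and the proteins that carry its signal to the nucleus in *Drosophila*: *Tl*, *Myd88*, *tub*, *pll*, *cact*, *dl* and *Dif*. They were taken by symbol from the platform annotation, and all 7 genes were found, on 10 of the 18769 probe sets tested. *Tl*, *cact* and *dl* were each read by 2 probe sets and the other 4 genes by 1. RNA of whole 3rd instar *y w* larvae was hybridized to 9 Affymetrix Drosophila Genome 2.0 arrays. Of these, 3 came from larvae pinched with forceps and taken 4 h later, 3 from larvae given a clean injury with a tungsten needle and taken 4 h later, and 3 from larvae without treatment. All groups were of the same *y w* strain, with no mutant or transgene of the pathway among them. The labels call the arrays biological replicates. The number of larvae behind each array RNA, and whether the groups were raised together, is not stated in the labels or the methods. Nor do the labels give a time for the untreated larvae.

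In flies the secreted ligand Spätzle, once cut by a protease, binds Toll, a receptor that spans the cell membrane. The cytoplasmic tail of Toll gathers the adaptors Myd88 and Tube and the kinase Pelle. Signalling leads to the destruction of Cactus, an IκB protein that holds the NF-κB factors Dorsal and Dif in the cytoplasm, and these factors then enter the nucleus. The cascade was first known from dorsoventral patterning of the embryo, where Dorsal acts, and in the fat body it turns on peptide genes such as *Drs*. Most of its steps are changes of protein (cleavage, binding, phosphorylation, degradation and movement into the nucleus), and a transcript level does not read them.

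The values are log2 signals as deposited, and the medians of the arrays lay between 4.94 and 5.08. Replicates of a group correlated with r from 0.988 to 0.995 across probe sets. Each probe set was tested with limma, with a mean per group and all 9 arrays in a single fit, and was called at an adjusted p under 0.05 (Benjamini-Hochberg over all probe sets tested). Pinched larvae were rinsed out of their vials and afterwards kept on apple juice agar, so that injury cannot be told apart from 4 h of time, handling and change of food. In whole larvae, fewer cells of a type and less RNA per cell cannot be told apart either.

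Within the cascade, transcripts of the receptor gene *Tl* rose after clean injury and those of the NF-κB gene *dl* after both treatments, on 1 of 2 probe sets each, and those of the kinase gene *pll* lay at the border of the test after both. The adaptor genes *Myd88* and *tub*, the inhibitor gene *cact* and the NF-κB gene *Dif* showed no change past the test. After pinching, 1 of the 10 probe sets was called higher and none lower, against a background in which 9.2% of all probe sets tested were called, 4.21% higher. It belonged to *dl*. After clean injury 2 of the 10 were called higher and none lower, namely a probe set each of *Tl* and *dl*, against a background of 10.2%, of which 5.22% higher. At an unadjusted p under 0.05, 3 of the 10 passed after pinching, against 23.5% of all probe sets tested, and 3 after clean injury, against 25.0% of all. The median log2 change of the 10 was 0.07 after pinching, against -0.02 over all probe sets tested. After clean injury it was 0.09, against -0.04 over all. When the replicate number entered as a block, which takes out shifts shared by arrays of equal number, 3 were called higher after each treatment (*Tl*, *pll* and *dl*) and none lower. The background was then 16.4% for pinching, with 7.6% higher, and 18.7% for clean injury, with 10.1% higher. Counts this small, read against these backgrounds, allow no statement on the cascade as a whole. Both treatments were set against the same untreated arrays.

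**Figure D1:**
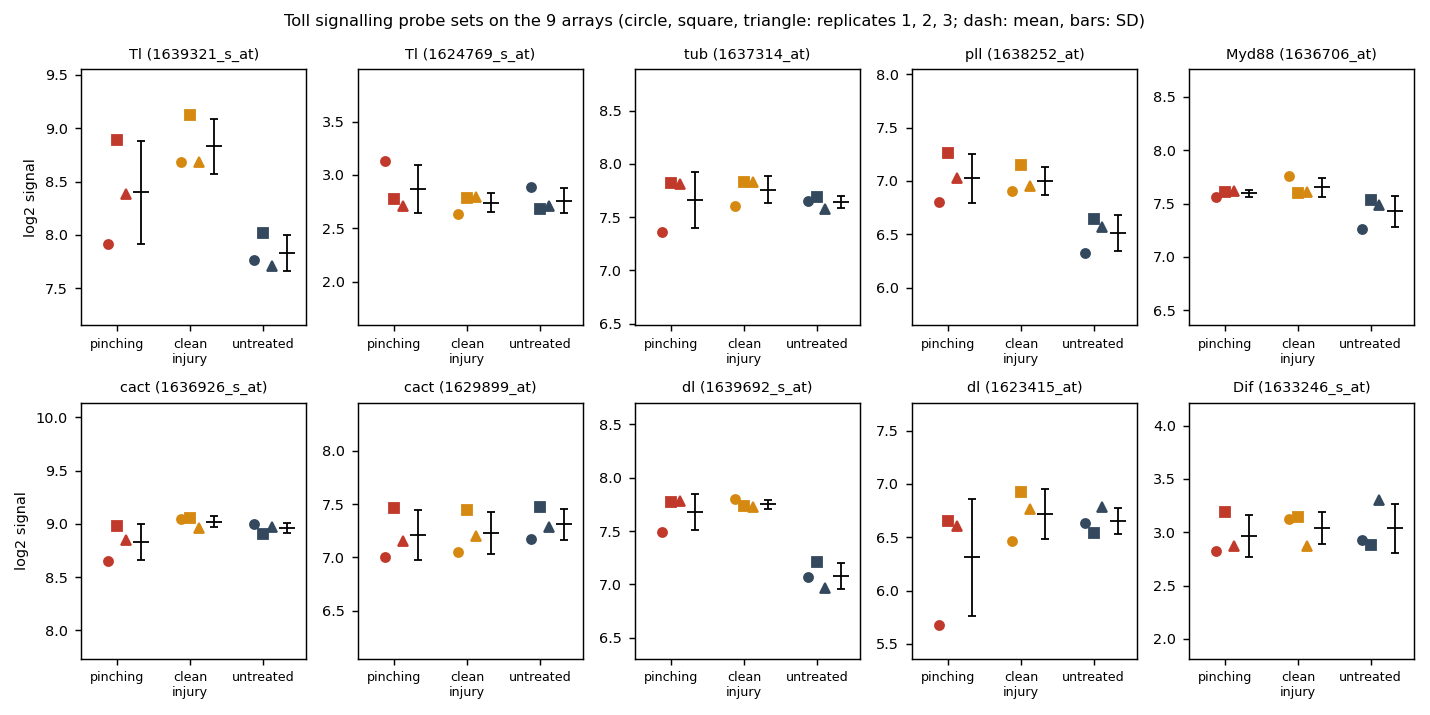
Log2 signal (vertical axes, all of the same span) of the 10 probe sets in larvae after pinching, after clean injury and in untreated larvae; symbols mark replicates 1 to 3, the dash the mean and the bars the SD (n = 3). The treated arrays of *dl* (1639692_s_at) and *pll* lie above all untreated ones, while the groups of *tub*, *cact* and *Dif* overlap.

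*Tl*, the receptor gene, showed the largest change among the 10 probe sets. Its brighter probe set (1639321_s_at) read 7.92, 8.89 and 8.38 on the 3 arrays of pinched larvae, 8.68, 9.13 and 8.68 after clean injury, and 7.76, 8.02 and 7.71 in untreated larvae. Every clean injury array lay above every untreated one, and after pinching the array of replicate 1 fell within the untreated range. After clean injury *Tl* averaged 8.83 ± 0.26, against 7.83 ± 0.17 in untreated larvae (log2, SD, n = 3 each), or 2.004 times as much signal (log2 change 1.003, with a standard error, SE, of 0.22, limma adjusted p = 0.0200). After pinching it averaged 8.40 ± 0.49 (SD, n = 3), with a log2 change of 0.57 (SE 0.22, limma adjusted p = 0.158). With the replicate block, this change passed the test (limma adjusted p = 0.0192). Without pinching replicate 1 it also passed, with a log2 change of 0.81 (limma adjusted p = 0.0361). The call after clean injury was lost without untreated replicate 1 (limma adjusted p = 0.0756), untreated replicate 3 (0.0831) or clean injury replicate 2 (0.0961), with log2 changes of 0.97, 0.94 and 0.85.

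The other probe set of *Tl* (1624769_s_at) did not follow. It read 3.13, 2.78 and 2.71 after pinching, 2.64, 2.78 and 2.80 after clean injury, and 2.89, 2.68 and 2.71 in untreated larvae. The groups overlap, and the log2 changes were 0.11 after pinching (limma adjusted p = 0.652) and -0.02 after clean injury (adjusted p = 0.939). Only 17.1% of the probe sets tested had a lower mean over the 9 arrays than this one, against 87.9% for the brighter probe set. Detection calls were not used here, and whether the dim probe set measures *Tl* above background is not known. The rise of *Tl* therefore rests on 1 of 2 probe sets, and the identifiers of both mark them as able to read several transcripts.

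Neither adaptor gene passed the test. *Myd88*, whose protein links the tail of Toll to the rest of the complex, read 7.56, 7.61 and 7.62 after pinching, 7.75, 7.60 and 7.60 after clean injury, and 7.26, 7.54 and 7.48 in untreated larvae. All treated arrays lay above all untreated arrays, by a narrow margin. Its log2 change was 0.17 after pinching (95% confidence interval -0.07 to 0.41, limma adjusted p = 0.385) and 0.22 after clean injury (-0.02 to 0.46, adjusted p = 0.228), and neither passed the test. Among the 10 probe sets here, 3 had groups that did not overlap after pinching and 4 after clean injury, all of them higher in the treated larvae. Over all probe sets tested it was 27.6% after pinching (12.7% higher) and 34.5% after clean injury (15.4% higher).

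*tub*, which encodes the adaptor that docks Pelle, read 7.36, 7.82 and 7.81 after pinching, 7.61, 7.83 and 7.83 after clean injury, and 7.65, 7.69 and 7.58 in untreated larvae. The treated arrays lay on both sides of the untreated ones. The log2 change was 0.02 after pinching (95% confidence interval -0.29 to 0.33) and 0.12 after clean injury (-0.19 to 0.42).

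*pll*, the gene of the kinase Pelle, stood at the border of the test after both treatments. It read 6.80, 7.26 and 7.02 after pinching, 6.90, 7.15 and 6.95 after clean injury, and 6.32, 6.64 and 6.57 in untreated larvae. Each treated array lay above each untreated array, so that every difference within a replicate number had to be positive. These differences were 0.47, 0.62 and 0.45 after pinching and 0.58, 0.51 and 0.38 after clean injury. The log2 change was 0.52 after pinching (SE 0.14, limma adjusted p = 0.05004) and 0.49 after clean injury (SE 0.14, adjusted p = 0.0562), or 1.43- and 1.41-fold. With the replicate block both passed the test (adjusted p = 0.00669 after pinching and 0.00779 after clean injury, limma). Over the other alternatives, arrays left out included, the adjusted p ran from 0.0206 to 0.170 after pinching and from 0.0321 to 0.218 after clean injury. Without pinching replicate 1 the adjusted p was 0.0261 after pinching, and without pinching replicate 1 or 2 it was 0.0321 or 0.0457 after clean injury (limma).

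*cact*, the gene of the inhibitor, did not pass the test on either probe set. The brighter one (1636926_s_at) read 8.65, 8.98 and 8.85 after pinching, 9.04, 9.06 and 8.96 after clean injury, and 8.995, 8.91 and 8.97 in untreated larvae. The other (1629899_at) read 7.01, 7.47 and 7.16 after pinching, 7.06, 7.44 and 7.20 after clean injury, and 7.18, 7.47 and 7.28 in untreated larvae. On both, the groups overlap. On the brighter one, the pinching arrays at 8.65 and 8.85 lay below all untreated arrays, and the clean injury arrays at 9.04 and 9.06 above them. On the other, the treated arrays lay within the untreated range or below it. The log2 changes after pinching were -0.13 (95% confidence interval -0.38 to 0.11) and -0.10 (-0.43 to 0.24). After clean injury they were 0.06 (-0.18 to 0.31) and -0.08 (-0.41 to 0.26). A rise of *cact* as large as that of *dl* on its brighter probe set, given below, lies outside these intervals.

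*dl* encodes Dorsal, and its brighter probe set (1639692_s_at) gave the most stable rise of the cascade when single arrays were left out. It read 7.49, 7.77 and 7.78 after pinching, 7.80, 7.73 and 7.72 after clean injury, and 7.07, 7.21 and 6.96 in untreated larvae. Even the lowest treated array lay above the highest untreated one. After pinching it averaged 7.68 ± 0.17 and in untreated larvae 7.08 ± 0.12 (log2, SD, n = 3 each), with a log2 change of 0.60 (SE 0.12, limma adjusted p = 0.0104). After clean injury it averaged 7.75 ± 0.04 (SD, n = 3), or 1.59 times as much signal (log2 change 0.67, SE 0.12, limma adjusted p = 0.00569). The call after clean injury was kept in all 9 fits that each left out 1 array. That after pinching was kept in 8 of them and lost without untreated replicate 3 (log2 change 0.54, limma adjusted p = 0.0553).

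The other probe set of *dl* (1623415_at) gave no call. It read 5.68, 6.66 and 6.60 after pinching, 6.47, 6.92 and 6.76 after clean injury, and 6.63, 6.54 and 6.78 in untreated larvae. Pinching replicate 1 stood far below the other pinching arrays, which lay within the untreated range. The log2 change was -0.34 after pinching (95% confidence interval -0.86 to 0.19, limma adjusted p = 0.429) and -0.02 without that array, and 0.07 after clean injury (-0.46 to 0.59, adjusted p = 0.883). Neither probe set lies at the dim end of the scale, since 80.3% and 68.7% of all probe sets had a lower mean. Within each array, the difference between the first and the second probe set was 1.81, 1.11 and 1.17 after pinching, 1.33, 0.81 and 0.96 after clean injury, and 0.43, 0.67 and 0.18 in untreated larvae. It was thus larger on every treated array than on every untreated array. The exact two-sided permutation test gave p = 0.1 for each treatment against untreated larvae, the smallest p that 3 arrays against 3 allow, so that the test could not reach 0.05 (0.3 after Benjamini-Hochberg adjustment over the 9 comparisons made for *Tl*, *cact* and *dl*). The rise of *dl* therefore rests on its brighter probe set alone, whose identifier marks it as able to read several transcripts. Which transcripts each probe set reads was not tested.

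**Figure D2:**
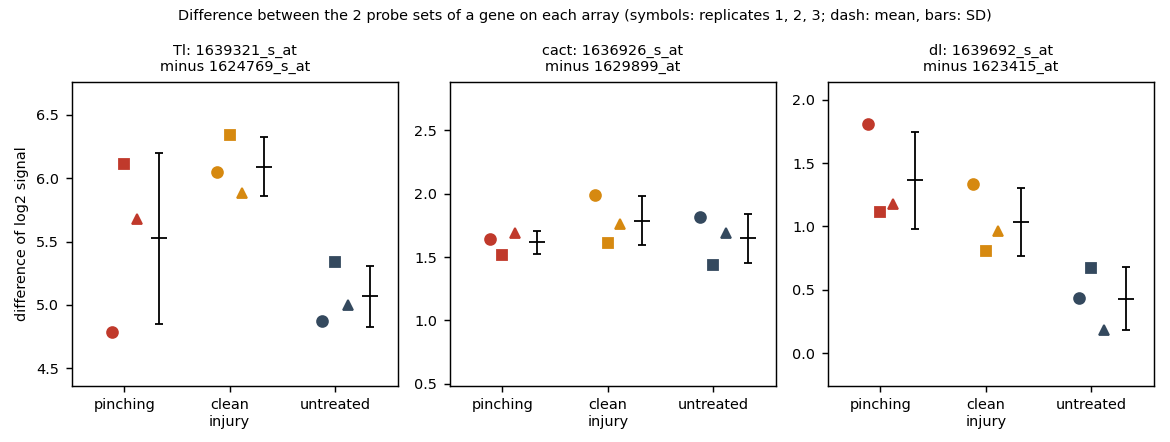
Difference in log2 signal between the brighter and the dimmer probe set of *Tl*, *cact* and *dl* on each array; symbols mark replicates 1 to 3, the dash the mean and the bars the SD (n = 3). For *dl* every treated array, from 0.81 to 1.81, lies above every untreated one, from 0.18 to 0.67, and for *cact* the groups overlap.

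For *Tl* the same difference was 4.79, 6.11 and 5.68 after pinching, 6.05, 6.34 and 5.89 after clean injury, and 4.87, 5.33 and 5.001 in untreated larvae. Only the clean injury arrays lay apart from the untreated ones (exact permutation p = 0.1, two-sided). For *cact* the differences ran from 1.51 to 1.69 after pinching, from 1.61 to 1.99 after clean injury and from 1.44 to 1.82 in untreated larvae, and all groups overlap.

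*Dif*, the gene of the other NF-κB factor of the pathway, was read by a dim probe set. It stood at 2.83, 3.19 and 2.87 after pinching, 3.12, 3.14 and 2.87 after clean injury, and 2.93, 2.88 and 3.30 in untreated larvae. The groups overlap, and the log2 change was -0.07 after pinching (95% confidence interval -0.41 to 0.26) and 0.01 after clean injury (-0.33 to 0.34). Of all probe sets tested, 22.2% had a lower mean. Whether the signal lies above background is not known, so that these intervals describe the probe set and need not describe the transcript.

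**Figure D3:**
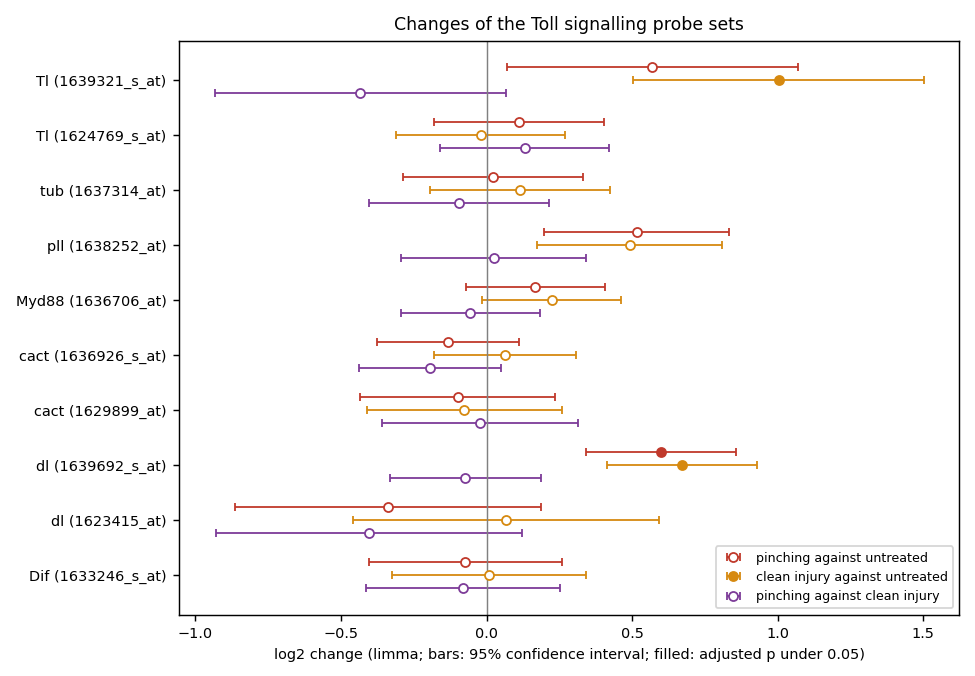
Log2 changes (horizontal axis) of the 10 probe sets from limma for pinching against untreated, clean injury against untreated and pinching against clean injury, with bars for the 95% confidence interval and filled symbols for an adjusted p under 0.05. The filled symbols are *dl* (1639692_s_at) after pinching, 0.60, and after clean injury, 0.67, and *Tl* (1639321_s_at) after clean injury, 1.003.

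Set directly against each other, the treatments did not differ past the test on any of the 10 probe sets (limma adjusted p = 0.9999 for each, against a background of 0.00533% called, and none at an unadjusted p under 0.05, against 1.66% of all). The replicate block also gave none of the 10, against a background of 0.0426%, and the groups of all 10 overlapped, whereas 5.19% of all probe sets had groups that did not. The largest difference was that of *Tl* (1639321_s_at), at -0.43 for pinching minus clean injury (95% confidence interval -0.93 to 0.07). The pinching array was the lower one within each replicate number, by 0.76, 0.24 and 0.30. For *dl* (1639692_s_at) the difference was -0.07 (-0.33 to 0.19), for *pll* 0.02 (-0.29 to 0.34) and for *Myd88* -0.06 (-0.29 to 0.18). The second probe set of *dl* differed by -0.40 (-0.93 to 0.12) and the brighter one of *cact* by -0.20 (-0.44 to 0.05). These intervals still hold sizeable differences, so that the treatments are not shown to act alike on these genes.

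Pinching replicate 1 stood low for many of these probe sets. It was the lowest of the 3 pinching arrays on 9 of the 10, against 44.6% of all probe sets tested, and the lowest of all 9 arrays on 5 of the 10, against 20.5%. The exception among the pinching arrays was the dim probe set of *Tl*. Pinching replicate 1 also had the lowest median over all probe sets of the 9 arrays, at 4.94. Without this array, *Tl* (0.81) and *pll* (0.63) were called higher after pinching along with *dl* (0.69), so that 3 of the 10 probe sets were called (limma). In the same fit 5.19% of all probe sets were called higher and 3.45% lower. The array is named here for its low values on these same probe sets, so that calls gained without it are no separate support.

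**Figure D4:**
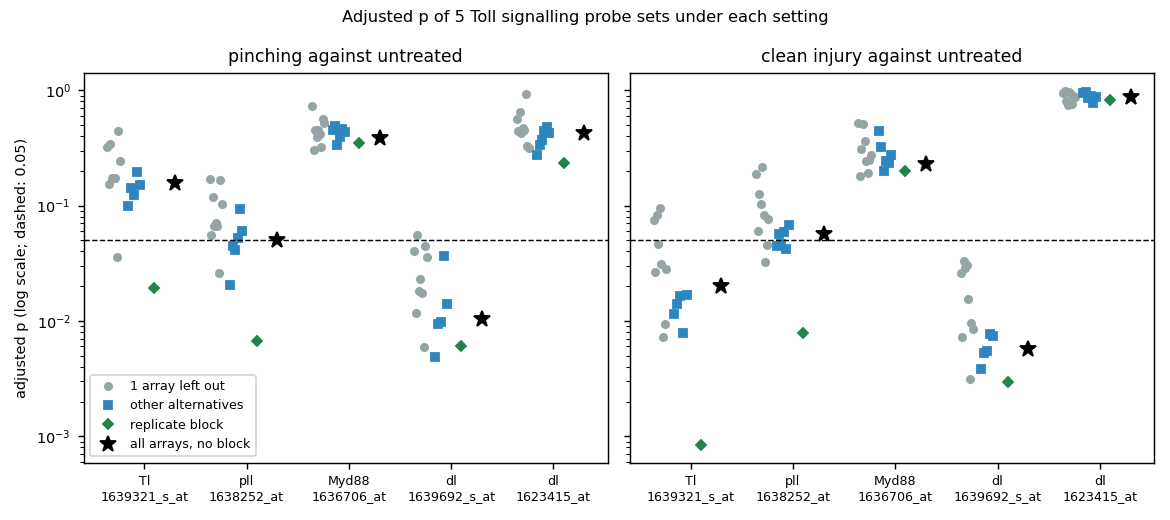
Adjusted p (log axis, limma) of 5 probe sets for pinching against untreated and clean injury against untreated, with all arrays and no block, with the replicate block, with other alternatives and with 1 array left out; the dashed line marks 0.05. *dl* (1639692_s_at) stays below the line but for 0.0553 without untreated replicate 3, *pll* lies on both sides of it, and *Myd88* and the other probe set of *dl* stay above it.

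Across the 9 arrays the probe sets of *Tl* (1639321_s_at), *pll* and *dl* (1639692_s_at) ran together, with Pearson's r of 0.89 for *Tl* and *pll*, 0.86 for *Tl* and *dl*, and 0.89 for *pll* and *dl*. The 2 probe sets of *dl* gave r = 0.01, those of *Tl* -0.29 and those of *cact* 0.45. The arrays share their groups and their overall scale, and these r values only describe the 9 arrays. Among probe sets that name another single gene, those most like *Tl* were of *Dmtn* (r = 0.995) and *scb* (r = 0.986), which encodes an integrin subunit. The most like *pll* were *lawc* (0.993) and *CG6424* (0.991), and the most like *dl* were *CG33232* (0.996) and *maf-S* (0.992), which encodes a small Maf protein. For *Myd88* they were *CG4707* (0.976) and *Pcd* (0.967), for *tub* *Nplp1* (0.961) and *amrt* (0.960), for the brighter probe set of *cact* *spdo* (0.972) and *Klp68D* (0.934), and for *Dif* *l(2)34Fd* (0.904) and *CG12608* (0.899). Being the highest of many, such r values are large for any probe set.

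Of other proteins that act inside the cell on Toll signalling, 14 of 16 listed genes were measured, each represented by its brightest probe set. After pinching 2 were called higher and none lower, and after clean injury 3 and none, against 4.21% and 5.22% of all probe sets called higher. These list genes had a median log2 change of 0.12 after pinching and 0.17 after clean injury, and over all probe sets it was -0.02 and -0.04. *Pli* encodes Pellino, a protein that binds Pelle. It read 7.40, 8.24 and 7.80 after pinching, 7.81, 8.27 and 7.86 after clean injury, and 6.45, 7.33 and 6.92 in untreated larvae. All treated arrays lay above all untreated ones, with a log2 change of 0.91 after pinching (SE 0.25, limma adjusted p = 0.0502, and 0.000628 with the replicate block) and 1.08 after clean injury (limma adjusted p = 0.0241). The call after clean injury was lost without untreated replicates 1 or 3 or clean injury replicates 1 or 2, with adjusted p from 0.0541 to 0.112. After pinching the call was gained without untreated replicate 2 (0.0236) or pinching replicate 1 (0.0307, limma).

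*Hrs* and *mop*, whose proteins work at endosomes and are needed for Toll signalling, were called higher after both treatments. *Hrs* read 8.21, 7.90 and 7.67 after pinching, 8.11, 7.75 and 7.66 after clean injury, and 7.26, 7.27 and 7.003 in untreated larvae, with log2 changes of 0.75 (limma adjusted p = 0.0191) and 0.66 (adjusted p = 0.0312). Without untreated replicates 1 or 3 or pinching replicate 2 the first was not called (adjusted p from 0.0519 to 0.0878), and without untreated replicates 1 or 3 or clean injury replicates 1 or 2 the second was not (0.0752 to 0.124). Each treated array of *Hrs* nevertheless lay above each untreated one. *mop* read 7.93, 8.25 and 8.12 after pinching, 8.20, 8.22 and 8.13 after clean injury, and 7.51, 7.82 and 7.61 in untreated larvae, again without overlap. It had log2 changes of 0.45 after pinching (limma adjusted p = 0.0441, which held in 2 of 9 leave-one-out fits, those lacking untreated replicate 2 or pinching replicate 1, with adjusted p from 0.0604 to 0.150 in the others) and 0.53 after clean injury (limma adjusted p = 0.0214, kept in 5 of 9, and from 0.0753 to 0.0950 without untreated replicates 1 or 3 or clean injury replicates 1 or 2). The other measured genes of the list, among them *Gprk2*, *Deaf1*, *tamo*, *cactin* and *wek*, had log2 changes between -0.32 and 0.29 and did not pass the test.

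Upstream of the receptor, *spz*, the gene of the Toll ligand, read 7.30, 7.26 and 7.32 after pinching, 7.47, 7.36 and 7.59 after clean injury, and 7.62, 7.03 and 7.32 in untreated larvae. The untreated arrays enclosed all treated ones, and the log2 change was -0.03 after pinching and 0.15 after clean injury (limma adjusted p = 0.925 and 0.549). Of the 6 genes of the Spätzle family, none was called after pinching, against 9.2% of all probe sets called in either direction. After clean injury 1, *spz5*, was called lower, against 10.2% of all probe sets called in either direction. It read 5.78, 5.74 and 5.60 after pinching, 5.36, 5.61 and 5.60 after clean injury, and 6.10, 6.04 and 6.14 in untreated larvae (log2 change after clean injury -0.57, limma adjusted p = 0.00963, held whichever single array was dropped). Under the replicate block 3 were lower after pinching and 2 after clean injury. That fit called 16.4% of all probe sets after pinching and 18.7% after clean injury, in either direction. Of 12 listed genes of the extracellular cascade and recognition proteins, 8 were measured, without *modSP*, *PGRP-SA*, *PGRP-SD* and *GNBP1*. Of these 8, 3 were called higher after each treatment and none lower. Of all probe sets, 4.21% were called higher after pinching and 5.22% after clean injury. With the replicate block 4 were higher and 1 lower after pinching, with *spirit* added to the higher ones and *psh* lower (limma adjusted p = 0.0461 each), and 4 were higher after clean injury, with *grass* added (0.0149). In the block fit 7.6% of all probe sets were called higher after pinching and 10.1% after clean injury. Without the block those called were *SPE*, the protease that cuts Spätzle, with log2 changes of 1.21 after pinching and 1.56 after clean injury, the serpin gene *nec* with 0.71 and 1.15, and *GNBP3*, of a glucan recognition protein, with 0.55 and 0.60. The calls of *SPE* and *nec* were kept in all 9 such fits, whereas that of *GNBP3* was lost without untreated replicates 1 or 3 (adjusted p from 0.0550 to 0.0839 over the treatments, limma) and, after pinching, without pinching replicate 2 (0.0595).

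Of 7 listed other receptors of the Toll family, 5 were measured, without *Toll-6* and *Toll-9*. None was called after either treatment. Over all probe sets, 9.2% were called after pinching and 10.2% after clean injury, in either direction. *Tollo* came closest, at 6.88, 6.88 and 6.77 after pinching, 6.93, 7.07 and 6.77 after clean injury, and 6.62, 6.58 and 6.63 in untreated larvae (log2 change 0.23 and 0.31, limma adjusted p = 0.219 and 0.0946). The groups did not overlap, as for 27.6% and 34.5% of all probe sets. *18w* had log2 changes of 0.15 and 0.32, and *Toll-4*, *Toll-7* and *Tehao* of -0.27, -0.11 and -0.08 after pinching and -0.19, 0.02 and -0.10 after clean injury. The probe sets of *Toll-4* and *Tehao* were dim, with mean log2 signals of 3.10 and 2.41 in untreated larvae. Whether *Tl* differed from its relatives was not tested.

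Among the 3 NF-κB genes, the largest measured rise was that of *Rel*, the factor of the IMD pathway, though *Dif* was read only by a dim probe set. *Rel* read 8.82, 9.21 and 9.001 after pinching, 9.30, 9.46 and 9.23 after clean injury, and 7.72, 8.06 and 7.94 in untreated larvae. The groups lay well apart, with log2 changes of 1.10 after pinching and 1.43 after clean injury (SE 0.13 each, limma adjusted p = 0.000992 and 0.000201). The brighter probe set of *dl* gave 0.60 and 0.67, and the other -0.34 and 0.07. The difference between *Rel* and *dl* was not tested. Of 8 peptide genes known to respond to Toll, 3 had a probe set of their own name, *Drs*, *BomS2* and *Mtk*. Probe sets naming several genes or none were not read for this list. From its microarrays the paper reports *IM1* and *IM3*, also on the list, as induced by pinching. *Drs*, *BomS2* and *Mtk* were all called higher after both treatments. How far these rises passed through Toll was not tested on these arrays, which hold no mutant of the pathway. *BomS2*, a bomanin, read 10.25, 10.56 and 10.18 after pinching, 10.80, 11.04 and 10.55 after clean injury, and 3.92, 3.997 and 3.82 in untreated larvae, with log2 changes of 6.42 and 6.89. *Drs*, the drosomycin gene, read 12.88, 13.24 and 13.06 after pinching, 13.27, 13.34 and 13.09 after clean injury, and 5.96, 5.93 and 8.54 in untreated larvae. Untreated replicate 3 stood far above the other untreated arrays and still far below all treated ones. The log2 changes were 6.25 after pinching and 6.43 after clean injury (SE 0.55 each), and without that array 7.12 and 7.29. *Mtk* had 1.86 after pinching (limma adjusted p = 0.0301) and 3.56 after clean injury, and the first missed the test when untreated replicate 1 or 3, or pinching replicate 1 or 2, was left out (adjusted p from 0.0675 to 0.123). Without untreated replicate 2 the changes of *Mtk* were 2.51 and 4.21. The log2 changes of the 10 probe sets from *Tl* to *dl* and *Dif*, at most 1.003 in size, stand beside these values, and the difference between them was not tested. Of 8 embryonic targets of Dorsal, *twi*, *sna* and *zen* were measured and none was called, with log2 changes between -0.23 and 0.37. Over all probe sets, 9.2% were called after pinching and 10.2% after clean injury, in either direction. With the replicate block *twi* was called higher after pinching (limma adjusted p = 0.0456), where 7.6% of all probe sets were called higher.

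**Figure D5:**
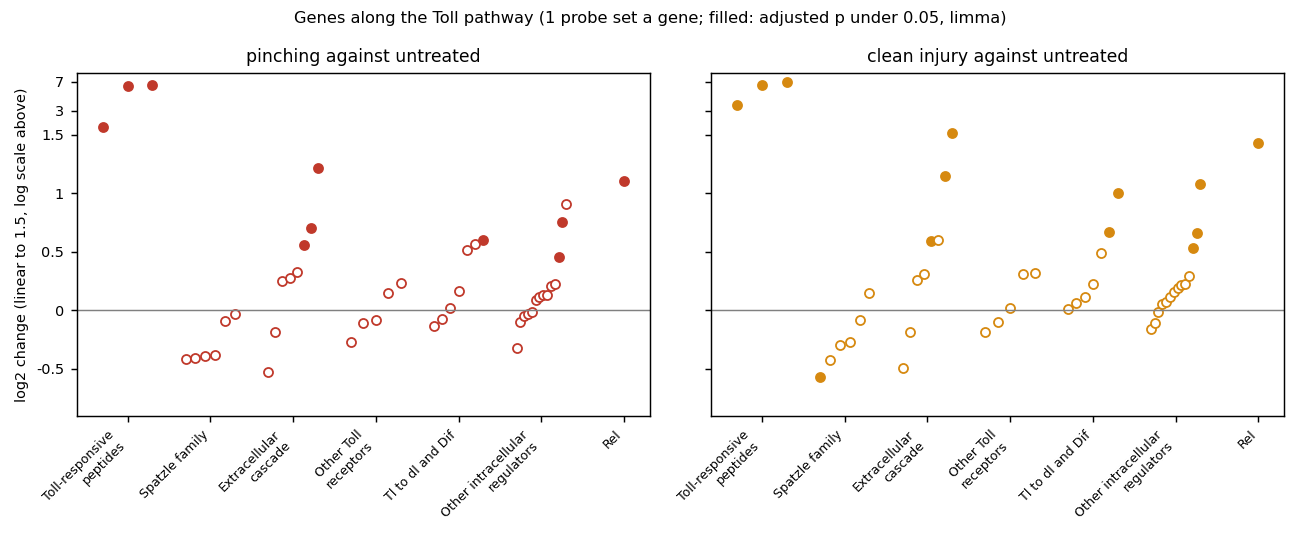
Log2 change (vertical axis, linear up to 1.5 and logarithmic above) after pinching and after clean injury, against untreated larvae, of genes along the Toll pathway, with 1 point a gene and filled points for an adjusted p under 0.05 (limma). After pinching the measured peptide genes, from 1.86 to 6.42, lie above *Rel*, at 1.10, and above the 7 genes from *Tl* to *dl* and *Dif*. These 7, each by its brightest probe set, run from -0.13 to 0.60.

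Markers of several larval tissues gave bright signals, with a mean log2 signal for *Lsp2* of the fat body of 13.95 after pinching, 13.95 after clean injury and 13.89 in untreated larvae, and for *Jon65Aiii* of the midgut of 13.60 after pinching, 13.56 after clean injury and 13.54 in untreated larvae. Of 6 markers listed for each tissue, 3 of the fat body, 3 of muscle, 5 of the midgut and 6 of the hemocytes were measured. Beside their calls, 9.2% of all probe sets were called after pinching and 10.2% after clean injury, in either direction. Of the fat body, muscle and midgut markers none was called after pinching. *alphaTry* of the midgut was called higher after clean injury (log2 change 1.13, limma adjusted p = 0.0412). That call was lost without untreated replicates 1 or 3 or clean injury replicates 1 or 2 (limma adjusted p from 0.0851 to 0.165). Of 6 hemocyte markers none was called after pinching, whereas after clean injury *He* was higher (log2 change 0.99, limma adjusted p = 0.00462) and *Pxn* lower (log2 change -0.64, adjusted p = 0.0154, lost without untreated replicate 1 at 0.0564 or clean injury replicate 2 at 0.0834). The mean log2 signal of the hemocyte list ran from 7.87 to 8.18 on the pinching arrays, from 8.07 to 8.20 after clean injury and from 7.89 to 8.06 in untreated larvae. For the fat body list it ran from 12.4 to 13.2 after pinching, from 12.7 to 13.2 after clean injury and from 12.6 to 13.0 in untreated larvae. For the muscle list it ran from 10.5 to 11.1 after pinching, from 10.4 to 10.9 after clean injury and from 10.3 to 11.1 in untreated larvae, and all groups overlap. The midgut list ran from 10.16 to 10.35 after pinching, from 10.14 to 10.35 after clean injury and from 9.98 to 10.105 in untreated larvae. Its treated arrays thus all lay above the untreated ones, as did those of the hemocyte list after clean injury. The members of these lists did not move together. In the midgut list *alphaTry* had log2 changes of 1.05 after pinching and 1.13 after clean injury. Its other members had -0.30 to 0.32 and -0.32 to 0.34. In the hemocyte list after clean injury *He* (0.99), *crq* (0.80) and *NimC1* (0.28) were higher, and *Pxn* (-0.64), *Hml* (-0.38) and *eater* (-0.12) lower. With the replicate block *He* and *crq* of the hemocytes and *alphaTry* were called higher after both treatments, and after clean injury *Fbp1* of the fat body was higher and *Pxn* and *Hml* of the hemocytes and *Mlc2* of muscle lower. The block fit called 16.4% of all probe sets after pinching and 18.7% after clean injury, in either direction. Every probe set tested reads above 0 on these arrays, and detection calls were not used for the markers. The part of such shifts in the changes of *Tl*, *pll* and *dl* was not tested.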

How the data were processed

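The values deposited by the authors are log2 signals of each probe set, from whole larvae on 9 Affymetrix Drosophila Genome 2.0 arrays, 3 per group by their titles. The methods name R for the analysis; how the probes were corrected, normalized and summarized is not stated there or in the labels. The highest value, 14.4, exceeds the natural log of a 16-bit scanner's maximum (11.1), which fits base 2. Of 18952 probe sets, 183 controls were left out and 18769 tested, as deposited and without a filter on dim ones, with limma 3.58.1 in R 4.3.3 (lmFit, contrasts.fit, eBayes; two-sided, Benjamini-Hochberg, threshold 0.05; prior of 4.25 degrees of freedom), after a check on simulated data. Confidence intervals are at 95%. Plots used matplotlib 3.10.9, and tables pandas 2.3.3 under Python 3.11.15. In the platform annotation 13646 probe sets have a single gene, 402 have several and 4721 have none. Symbols were updated by gene identifier from the RefSeq table of Release 6 plus ISO1 MT (0 changed). Probe sets of which the identifier carries _s_ can read several transcripts; 5 of the 10 here do.

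The members and lists were chosen with earlier results of these data known. Named were every probe set of the members, every called list gene with up to 3 others per list, and the 2 genes most like each member; further list genes were named after their values were seen. In all 9 pairs of arrays with equal replicate numbers, deviations from the group means ran together (r from 0.189 to 0.548, and from -0.463 to 0.160 for other numbers). Equal numbers were therefore treated as pairs in the fit with the replicate block and in differences within a replicate number. This pairing was read from the data themselves. The labels state no pairing. The fit without a block stayed the main one. The alternatives were quantile normalization, median centring of arrays, dropping the dimmest 40% of probe sets or those that can cross-hybridize, fitting 6 arrays, a robust prior with an intensity trend, the replicate block, and dropping each array. The number of arrays limits the precision. No sequences were used here.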

Additional observations from a re-analysis of the deposited data

How the results depend on the processing

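The direction of *dl* (1639692_s_at), *pll* and the brighter probe set of *Tl* against untreated larvae was kept under every alternative run. After pinching the count of the 10 probe sets called higher was 2 with quantile normalization, with arrays centred on their median and without the dimmest 40% of probe sets (*dl* and *pll*), 3 with the replicate block, and 0 without probe sets that can cross-hybridize, which drops the probe sets of *Tl* and *dl* that were called. Leaving out each array gave 0 (without untreated replicate 3) to 3 (without pinching replicate 1). After clean injury it was 0 without such probe sets and from 1 (without untreated replicates 1 or 3 or clean injury replicate 2) to 3 (without pinching replicates 1 or 2) with an array left out. Of all probe sets, 790 were called higher and 937 lower after pinching. These counts were 1426 and 1645 with the replicate block, and 579 lower with only the 6 arrays compared. Leaving out arrays gave 418 to 974 higher and 373 to 1008 lower. After clean injury, against 980 higher and 926 lower, the replicate block gave 1892 and 1610, and leaving out arrays 441 to 1266 higher and 327 to 1225 lower. Between pinching and clean injury 1 was called lower, 0 with only the 6 arrays compared, 8 with the replicate block and 1 to 3 with an array left out.

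Changes near 0 that missed the test turned sign. After pinching, *tub* was at -0.014 with arrays centred on their median and *Dif* at 0.015 with quantile normalization. Leaving out arrays gave -0.059 to 0.17 for *tub*, -0.18 to 0.059 for *Dif*, -0.018 to 0.19 for *Tl* (1624769_s_at) and -0.23 to 0.0022 for *cact* (1629899_at). After clean injury, quantile normalization gave 0.079 for *Tl* (1624769_s_at) and -0.027 for *dl* (1623415_at), and median centring -0.037 for *Dif*. Leaving out arrays gave -0.059 to 0.045 for *Tl* (1624769_s_at), -0.18 to 0.012 for *cact* (1629899_at), -0.036 to 0.19 for *dl* (1623415_at) and -0.071 to 0.14 for *Dif*. For pinching minus clean injury, quantile normalization gave 0.033 for *cact* (1629899_at), and leaving out arrays -0.17 to 0.059 for *tub*, -0.092 to 0.14 for *pll*, -0.15 to 0.083 for *cact* (1629899_at) and -0.12 to 0.023 for *dl* (1639692_s_at). The cause was not tested. Apart from the calls of *Tl*, *pll* and *dl* given here and with the results, no probe set of the 7 genes changed its call. Detection calls were not used here, so how far the dim probe sets of *Tl* and *Dif* stand above background is not known.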
